A study of Mus musculus with 8 samples.

Results

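The nuclear genes that encode the machinery of oxidative phosphorylation were taken from the count table by their symbols. A gene was a member if its symbol started with *Ndufa*, *Ndufb*, *Ndufc*, *Ndufs*, *Ndufv*, *Uqcr*, *Cox4* to *Cox8* or *Atp5*, or was *Sdha*, *Sdhb*, *Sdhc*, *Sdhd* or *Cyc1*, had no pseudogene suffix, and held at least 50 counts in each of the 8 columns. Of 55335 rows, 108 matched by symbol, 9 of them carried the suffix and 25 were under the minimum, which left 74 members. They comprised 7 core and 23 accessory subunits of complex I, 5 complex I assembly factors, 4 subunits of complex II, 8 of complex III, 12 of complex IV and 15 of the ATP synthase. The rule used the lowest count of a gene over the 8 columns and no comparison of the genotypes, although a gene low in 1 library of either group was left out by it.

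Oxidative phosphorylation takes place in the inner mitochondrial membrane. Complex I and complex II pass electrons from NADH and succinate to ubiquinone, complex III hands them on to cytochrome c, and complex IV delivers them to oxygen. The proton gradient that complexes I, III and IV build drives the ATP synthase. Most subunits are encoded in the nucleus and imported, and a small number are encoded by mitochondrial DNA. In CD8+ T cells the capacity of this pathway is known to accompany memory and long persistence, and its loss to accompany exhaustion in tumors.

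The cells were tumor-infiltrating CD8+ T cells that carried the activation marker CD44 and the inhibitory receptor PD-1, sorted from subcutaneous MC38 colon carcinomas of C57BL/6 mice aged 6 to 10 weeks. WT samples (n = 4) came from *Lsd1*f/f mice and KO samples (n = 4) from *Cd4-Cre*+*Lsd1*f/f mice, so that the floxed alleles of *Lsd1* (*Kdm1a*), a histone demethylase gene, were present in both groups. *Cd4-Cre* deletes in all αβ T cells that pass through a CD4-expressing stage in the thymus, CD8+ T cells included, and leaves other cells of the host with *Lsd1*. Each WT sample combined the cells of 2 mice whereas each KO sample came from 1 mouse, and this difference in pooling and the genotype cannot be told apart. Between 10000 and 20000 cells were lysed per sample; the harvest day is given as 18 in the sample protocol and as 14 in the series design.

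The libraries held 11657807 to 30295406 counts. The WT samples are named S1 to S4 and the KO samples S5 to S8 as in the study, without a link to replicate numbers. All 7 markers of the sorted cells were measured, in CPM (counts scaled to library size and composition), and 5 had an estimate below 0, with 1 called lower and 1 higher. Of all genes tested, 4.98% were called lower and 6.31% higher at an adjusted p under 0.05. *Cd8a* was at 1210 to 1410 CPM in WT and 1010 to 1230 CPM in KO samples (log2 fold change -0.27, adjusted p = 0.0676), and *Cd8b1* fell by 23.8% from 306 to 377 CPM down to 231 to 289 CPM (adjusted p = 0.0158) and thus by about as much as *Atp5a1* and *Atp5b* below. *Cd3e* had an estimate of -0.26, *Cd3d* 0.017 and *Ptprc* -0.053, *Pdcd1* was at 306 to 743 CPM over all samples, and *Cd44* rose from 399 to 488 CPM to 670 to 952 CPM. *Kdm1a* held 25.2 to 34.8 CPM in KO and 42.7 to 47.2 CPM in WT samples. The summed level of 15 myeloid markers was 456, 558, 1404 and 776 CPM for the 4 WT samples but 325, 334, 233 and 236 CPM for the 4 KO samples. Of these markers 14 were tested and 10 fell (71.4%), with estimates from -3.93 to -0.01. The macrophage gene *C1qa*, which had the lowest of these estimates, reached 21 to 97.1 CPM in WT but 2.67 to 4.12 CPM in KO samples. The 7 markers of other lymphocytes summed to 3.43 to 9.59 CPM in WT against 13.9 to 32.9 CPM in KO samples. Of 4 tested, 2 rose (*Cd4*, at 1.86 to 6.87 against 7.26 to 26.2 CPM, and *Klrb1c*, at 0 to 1.32 against 2.15 to 5.51 CPM). All 4 had an estimate above 0, and in 3 of them every KO sample lay above every WT sample, against 8.99% of all genes. The 6 tumor and stroma markers summed to 21.5 to 32.2 CPM in WT against 57.4 to 79.3 CPM in KO samples, almost all of it *Pecam1*. Of 2 tested, *Pecam1* rose and the other had an estimate below 0 (-0.70), and *Krt8* was at 0 throughout. The part of these marker differences, those of the sorted cells included, in the results below was not tested. Fewer cells of a type and less RNA per cell cannot be told apart in such bulk samples. The p-values measure the spread between these samples.

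The comparison asks whether loss of LSD1 changed the expression of the respiratory chain and ATP synthase genes in the infiltrating cells. Of the 74 members, 4 fell in KO cells and 0 rose at an adjusted p under 0.05 in edgeR's quasi-likelihood test. *Atp5a1*, *Atp5b*, *Cyc1* and *Ndufc2* were the genes that fell, by between 23.5% and 42.7%. Over all 15378 genes tested, 4.98% were lower and 6.31% higher by the same rule, so the 5.41% of members that fell lay near the background and is not a result about these genes. None of the members passed the thresholds of the study (adjusted p under 0.01 and a fold change above 1.5), which 4.9% of all genes passed in either direction. DESeq2's Wald test also gave 0 members that rose or passed those thresholds.

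Differences over all 74 members were mostly small and in one direction. The log2 fold change was below 0 in 59 of the 74 members (79.7%), compared with 51.4% of all genes tested, and its median was -0.20 compared with -0.014. For 42 members the fitted level was over 10% lower in KO cells and for 4 over 10% higher, and only 9 were over 25% lower. The standard errors of single genes ran from 0.091 to 0.35 with a median of 0.19. At an unadjusted p under 0.05, 13 members (17.6%) were lower and 1 (1.35%) was higher, against 12.1% and 12.4% of all genes tested. In 6 members (8.11%) every KO sample lay below every WT sample, against 8.28% of all genes, and in 0 members did every KO sample lie above, against 8.99%. Genes expressed over the same range of CPM as the members (9444 genes) gave a median of -0.015, with 51.9% below 0 and 5.48% lower.

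**Figure D1:**
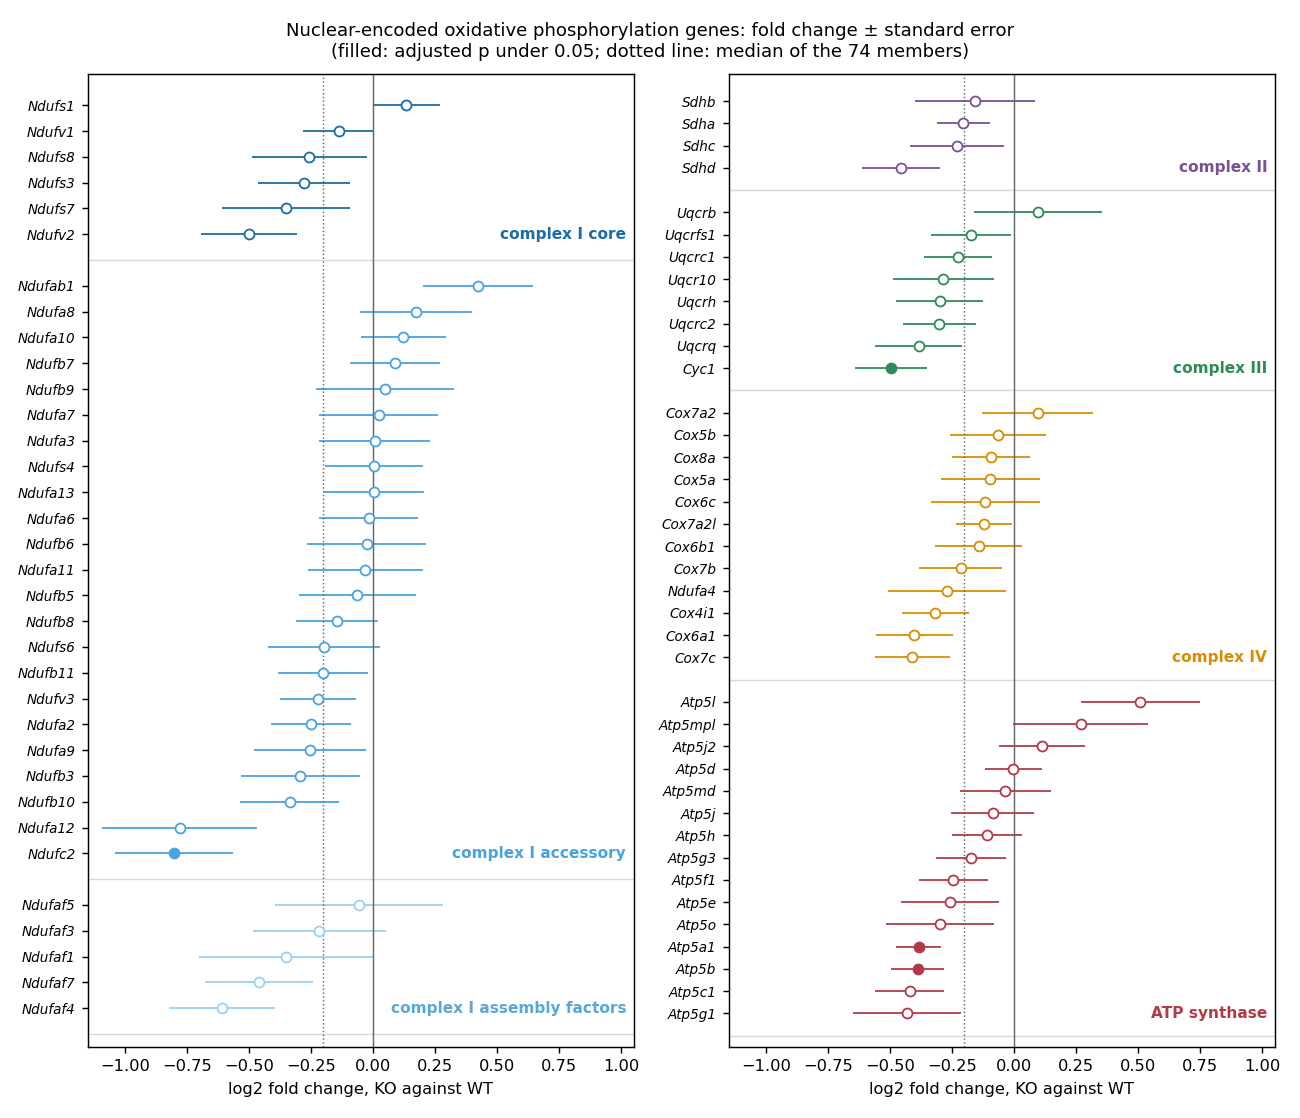
Log2 fold change of KO against WT (x axis) with its standard error (bars) for 73 of the 74 members (y axis), grouped by complex, with filled symbols for an adjusted p under 0.05. The 4 filled symbols all lie below 0, and 58 of 73 points lie left of the solid line at 0.

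The catalytic head of the ATP synthase, in which α and β subunits alternate around the γ stalk, held both of the most abundant transcripts among the members by CPM. *Atp5a1* (α subunit, ENSMUSG00000025428.15) was at 294, 321, 312 and 350 CPM in WT samples and at 228, 257, 242 and 250 CPM in KO samples. Every KO sample lay below every WT sample, with means of 319 ± 23.4 and 244 ± 12.5 CPM (SD, n = 4), and the gene fell by 23.5% (log2 fold change -0.39, SE 0.091, adjusted p = 0.0106). *Atp5b* (β subunit, ENSMUSG00000025393.12, chromosome 10 of GRCm38 from 128083273 to 128090391) was at 352, 418, 355 and 473 CPM in WT samples and at 303, 303, 287 and 325 CPM in KO samples. Its groups did not overlap either, and it fell by 23.7% (log2 fold change -0.39, SE 0.11, adjusted p = 0.0226). The ratio of *Atp5b* to *Atp5a1* was 1.25 in both groups, and the pair made up 24.5% of the CPM of all members. *Atp5a1* passed the threshold whichever sample was left out, whereas *Atp5b* missed it without S2 (adjusted p = 0.0741), S4 (0.0858), S6 (0.0585) or S7 (0.0721).

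*Atp5c1*, which encodes the γ subunit, was at 46.8, 53.3, 44.7 and 54 CPM in WT and at 30.3, 37.1, 42.1 and 38.9 CPM in KO samples. All 4 KO values were below the WT values, but the adjusted p was 0.062 (log2 fold change -0.42, SE 0.14). The δ subunit *Atp5d*, also part of the central stalk, was at 85.2 to 115 CPM in WT and 88 to 108 CPM in KO samples, with a log2 fold change of -0.003 (SE 0.12), and the ε subunit *Atp5e* had -0.26 (SE 0.20). Estimates of the 5 head and stalk subunits thus ran from -0.42 to -0.003, and differences between these genes were not tested.

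Among the 3 genes that encode the same mature c subunit of the membrane ring, *Atp5g1* had the lowest estimate of the ATP synthase list, -0.43 (SE 0.22, adjusted p = 0.239), with 13.9 to 25.7 CPM in WT and 10.4 to 15.8 CPM in KO samples. *Atp5g3*, at 37.9 to 51.2 CPM in WT and 35.1 to 45.9 CPM in KO samples, had -0.17 (SE 0.14), and *Atp5g2* was just outside the minimum with 44 counts in its lowest column and had -0.17. The groups overlapped in each of these genes. The highest estimate of all members was that of *Atp5l* (subunit g of the membrane part), which was at 10.8, 8.06, 14.5 and 8.83 CPM in WT and at 14.8, 13.6, 19.5 and 12.2 CPM in KO samples. Its groups overlapped, and the difference of 0.51 (SE 0.24) had an adjusted p of 0.203. In sum, the 15 genes of the ATP synthase gave 1160 ± 110 CPM in WT and 955.7 ± 29.1 CPM in KO samples (SD, n = 4), 2 fell, 12 had an estimate below 0, and their median was -0.17. Most of the summed level came from the 2 that fell, *Atp5a1* (319 CPM in WT, 244 CPM in KO) and *Atp5b* (399 CPM in WT, 305 CPM in KO).

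**Figure D2:**
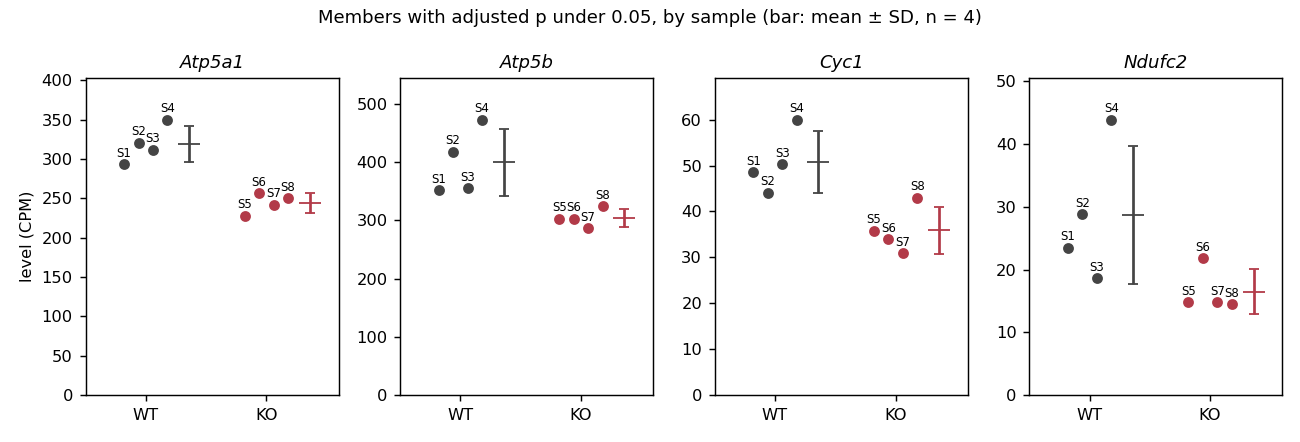
Level in CPM (y axis, from 0) of the 4 members with an adjusted p under 0.05 in each WT (grey) and KO (red) sample, with mean ± SD (n = 4). In *Atp5a1*, *Atp5b* and *Cyc1* all KO samples lie below all WT samples, while in *Ndufc2* the KO sample S6 at 21.8 CPM lies above the WT sample S3 at 18.6 CPM.

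Complex III passes electrons from ubiquinol to cytochrome c by way of the Rieske iron-sulfur protein and cytochrome c1. *Cyc1* (cytochrome c1, ENSMUSG00000022551.8, chromosome 15 of GRCm38 from 76343523 to 76346260) was at 48.6, 44.1, 50.4 and 60 CPM in WT and at 35.8, 34, 30.9 and 43 CPM in KO samples. The groups did not overlap, though S8 lay just under S2, and *Cyc1* fell by 29.1% (log2 fold change -0.50, SE 0.15, adjusted p = 0.0356). Its call was lost without S1, S3, S4, S5, S6 or S7 (adjusted p of 0.0509, 0.0692, 0.133, 0.0618, 0.0868 and 0.111). The Rieske protein gene *Uqcrfs1*, the most highly expressed complex III gene per length at 35.2 RPKM (CPM per kilobase of exon), was at 48.4, 51, 43 and 61 CPM in WT and at 32, 50.8, 47.9 and 49.3 CPM in KO samples. S5 alone was low, and the log2 fold change was -0.18 (SE 0.16, adjusted p = 0.563).

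The core proteins *Uqcrc1* and *Uqcrc2* had estimates of -0.23 (SE 0.14) and -0.30 (SE 0.15), and the hinge protein gene *Uqcrh* had -0.30 (SE 0.17). *Uqcrb*, an accessory subunit near the ubiquinone site, had the one estimate above 0 in this complex, 0.094 (SE 0.26), at 6.12 to 13 CPM in WT and 9.46 to 12.9 CPM in KO samples. Of the 8 genes 1 fell, 7 had an estimate below 0, and the median was -0.29, or -0.18 without S4. Their summed level was 308.4 ± 44.3 CPM in WT and 252.4 ± 13.2 CPM in KO samples (SD, n = 4).

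The 7 core subunits of complex I encoded in the nucleus carry the flavin and iron-sulfur centers that lead electrons from NADH to ubiquinone. None of them passed the threshold, 6 had an estimate below 0, and the median was -0.28. *Ndufv2*, an iron-sulfur subunit of the NADH-oxidizing module, was at 22, 25.5, 15.8 and 24.3 CPM in WT and at 13, 17, 17 and 15.1 CPM in KO samples. Only S3 among the WT samples reached into the KO range, and the log2 fold change was -0.50 (SE 0.19, adjusted p = 0.111), with an adjusted p of 0.0483 when S3 was left out. *Ndufs1*, the largest iron-sulfur subunit, was the exception at 0.13 (SE 0.14), with 32.8 to 40.9 CPM in WT and 36.4 to 46.2 CPM in KO samples.

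Accessory subunits surround this core, and their 23 genes had a median of -0.032 with 14 estimates below 0. This median ran from -0.129 without S7 to 0.007 without S5 and 0.001 without S4, so its sign is not settled. *Ndufc2*, a membrane-arm subunit (ENSMUSG00000030647.8, chromosome 7 of GRCm38 from 97400003 to 97407802), was at 23.5, 28.8, 18.6 and 43.9 CPM in WT and at 14.8, 21.8, 14.8 and 14.5 CPM in KO samples. S4 was far above the other WT samples and S6 above the other KO samples, so the groups overlapped. *Ndufc2* fell by 42.7% (log2 fold change -0.80, SE 0.24, adjusted p = 0.0385), the lowest estimate of all members. Its call was lost without S2, S4, S5, S7 or S8 (adjusted p of 0.0899, 0.175, 0.084, 0.0986 and 0.0873), and without S4 the log2 fold change was -0.53. *Ndufa12*, named here after its value was seen, had a similar estimate of -0.78 but a larger error (SE 0.31, adjusted p = 0.126) at 3.83 to 12.5 CPM.

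At the other end of the accessory list stood *Ndufab1*, the mitochondrial acyl carrier protein, which also serves fatty acid synthesis in mitochondria. It was at 13.4, 11.1, 9.22 and 8.74 CPM in WT and at 11.9, 16.6, 15.9 and 12.5 CPM in KO samples. The groups overlapped, and its difference of 0.42 (SE 0.22, adjusted p = 0.264) did not pass the threshold. *Ndufb11*, the accessory subunit with the highest level per length (42.6 RPKM), had 36.6 to 46.5 CPM in WT and 27.8 to 52.3 CPM in KO samples, where S6 was the highest and S5 the lowest of all 8. Its log2 fold change was -0.20 (SE 0.18), and its exons overlap those of *Rbm10* on the opposite strand, which held 136% as many counts. The accessory genes thus held both the lowest estimate of all members and 9 of the 15 above 0.

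Assembly factors are not part of the finished complex I but bind its intermediates. All 5 had an estimate below 0 with a median of -0.35, and 0 passed the threshold. *Ndufaf4* was at 15.2, 11.6, 14.8 and 12.8 CPM in WT and at 8.34, 9.94, 8.68 and 8.65 CPM in KO samples. The groups did not overlap, and the log2 fold change was -0.61 (SE 0.21, adjusted p = 0.0786). Its partner *Ndufaf3*, with 7.5 to 17.3 CPM in WT and 8.93 to 13.3 CPM in KO samples, had -0.22 (SE 0.27). *Ndufaf5*, the member closest to the minimum with 50 counts in its lowest column, had -0.056 (SE 0.34), and its groups overlapped fully. The median of the 5 genes ranged from -0.53 without S1 to -0.23 without S7.

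Complex II links the chain to the tricarboxylic acid cycle and has no subunit encoded in mitochondrial DNA. Its 4 genes all had estimates below 0, with a median of -0.22 (-0.32 without S3 and -0.12 without S4) and no call. *Sdhd*, a membrane anchor subunit, was at 51.2, 46.1, 45.3 and 55.8 CPM in WT and at 32.1, 47.4, 29.3 and 35.8 CPM in KO samples. S6 lay within the WT range and the other KO samples below it, and the log2 fold change was -0.46 (SE 0.16, adjusted p = 0.0717, or 0.0171 without S6). For *Sdha*, the flavoprotein that oxidizes succinate, the values were 84.3 to 106 CPM in WT and 77.7 to 84.7 CPM in KO samples (-0.21, SE 0.11, adjusted p = 0.253). *Sdhb*, the iron-sulfur subunit, had the highest estimate of the complex, -0.16 (SE 0.24), with S3 as the lowest of all samples at 11.2 CPM.

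Complex IV reduces oxygen. Its catalytic subunits are mitochondrial and its nuclear subunits surround them. None of the 12 genes passed the threshold, 11 had an estimate below 0, and the median was -0.13, or -0.24 without S1. *Cox7c*, the gene with the lowest estimate, was at 30.9, 28.9, 31 and 27.8 CPM in WT and 24.7, 23.3, 21.4 and 19.8 CPM in KO samples. All KO values were below the WT values, with a log2 fold change of -0.41 (SE 0.15, adjusted p = 0.0927). *Cox8a*, the member with the highest level per length at 96.2 RPKM, was at 51, 69.9, 49 and 76.1 CPM in WT and at 51.8, 70.1, 52.6 and 56.1 CPM in KO samples, and its groups overlapped (-0.094, SE 0.16). *Cox7a2* had the highest estimate, 0.094 (SE 0.22), with KO values of 16.9, 17.4 and 17.2 CPM in S5 to S7 but 10.1 CPM in S8.

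The exact two-sided permutation test over the 70 arrangements of 4 against 4 samples gave its smallest possible p, 0.0286, for 6 members, namely *Atp5a1*, *Atp5b*, *Atp5c1*, *Cyc1*, *Ndufaf4* and *Cox7c*. These are the 6 members without overlap between the groups, so the test restates that separation. They are 8.11% of the members, near the 8.28% of all genes in which every KO sample lay below every WT sample. After adjustment over all genes tested in the edgeR fit, 3 of these 6 members passed the threshold.

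Isoforms of the same subunit separated clearly in level. For 6 subunits with a widespread and a tissue-restricted isoform, the widespread genes *Cox4i1*, *Cox6a1*, *Cox6b1*, *Cox7a2*, *Cox7b* and *Cox8a* held 138 to 1663 counts per column. The restricted or alternative genes *Cox4i2*, *Cox6a2*, *Cox6b2*, *Cox7a1*, *Cox7b2*, *Cox8b*, *Cox8c* and *Ndufa4l2*, several of which are known from heart, skeletal muscle, lung or testis, held 156 counts in all, at most 30 in any column, and 3 of the 8 were at 0 in every column. A count of 0 allows up to 3 counts, or 0.106 to 0.25 CPM depending on the library. *Ndufa4l2* has no counterpart among the 6 widespread genes named. The counts for the 6 subunits thus lay almost wholly in the widespread forms, in WT and KO cells alike.

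Per length of exon, the means of members over all 8 samples ranged from 1.81 RPKM (*Ndufab1*) to 96.2 RPKM (*Cox8a*), with a median of 11.8 RPKM. By this measure, the genes for subunits of one complex were far from equal. Within the ATP synthase, *Atp5a1* was at 89.8 RPKM and *Atp5b* at 83.1 RPKM, but *Atp5l* at 1.99 RPKM. The union of annotated exons sets this scale, and it is 6443 bases for *Atp5l* and 6883 bases for *Ndufab1* against a median of 1821 bases over the members and 3589 bases over all genes tested. The 37 members above the median CPM had a median log2 fold change of -0.22 with 32 below 0, and the 37 below it -0.15 with 27 below 0.

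**Figure D3:**
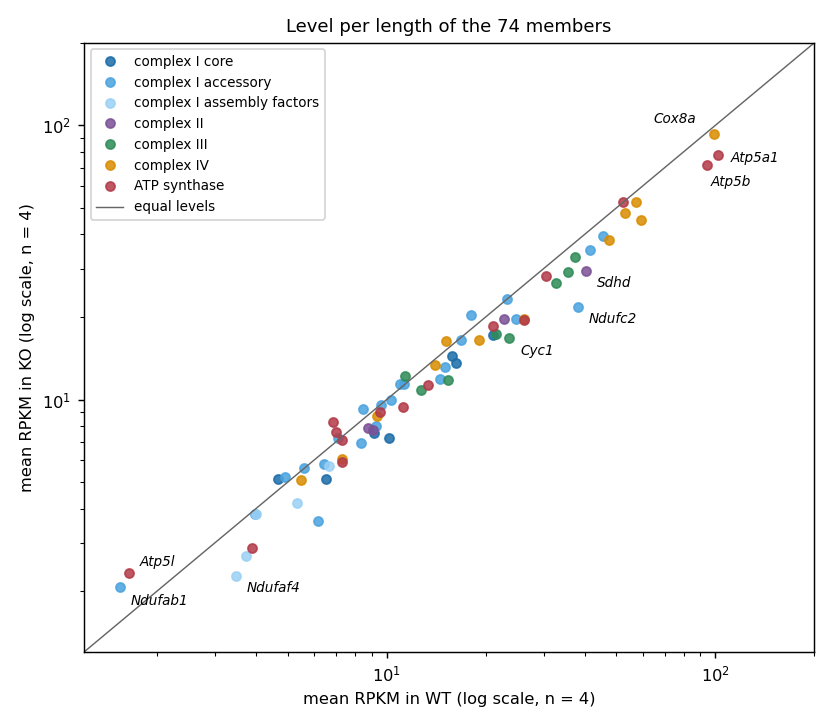
Mean level of each member per length (RPKM, log scale) in WT samples (x axis, n = 4) against KO samples (y axis, n = 4), colored by complex, with the line of equal levels. The points range from 1.54 to 102 RPKM in WT and from 2.07 to 93.1 RPKM in KO samples, with *Cox8a*, *Atp5a1* and *Atp5b* at the top. *Ndufc2* lies farthest below the line, and *Atp5l* and *Ndufab1* lie above it at the low end.

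Many members were high or low in the same samples. Their summed level was 2586, 2898, 2573 and 3131 CPM in WT samples, in the order S1 to S4, and 2244, 2468, 2459 and 2342 CPM in KO samples, in the order S5 to S8. The ranges did not overlap, and the means of 2797 ± 268 and 2378 ± 106 CPM (SD, n = 4) differed by -15.0%, or by -11.5% when S4 was left out. *Atp5a1* and *Atp5b*, both called lower, made up 24.5% of the CPM of all members, and the sum without them was not taken. As a share of all counts, the members took between 0.252% and 0.326% of each WT library and between 0.22% and 0.258% of each KO library, and here S1 at 0.252% was below S6 at 0.258%. S4 was the highest of all 8 samples in 29 members, and S5 was the lowest in 23.

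With each gene centred on its own mean over the samples, the median of the members was 0.012, 0.15, -0.045 and 0.27 on the log2 scale for S1 to S4, compared with -0.19, 0.016, -0.024 and -0.13 for S5 to S8. The median of all genes tested stayed between 0.010 and 0.042. On this scale S1 and S3 lay within the KO range, so 2 of 4 WT samples were not separated from KO samples. The median log2 fold change of the members was -0.135 without S4, and the number of members that fell was then 1 (*Atp5a1*). It was 2 without S2, S5 or S7.

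**Figure D4:**
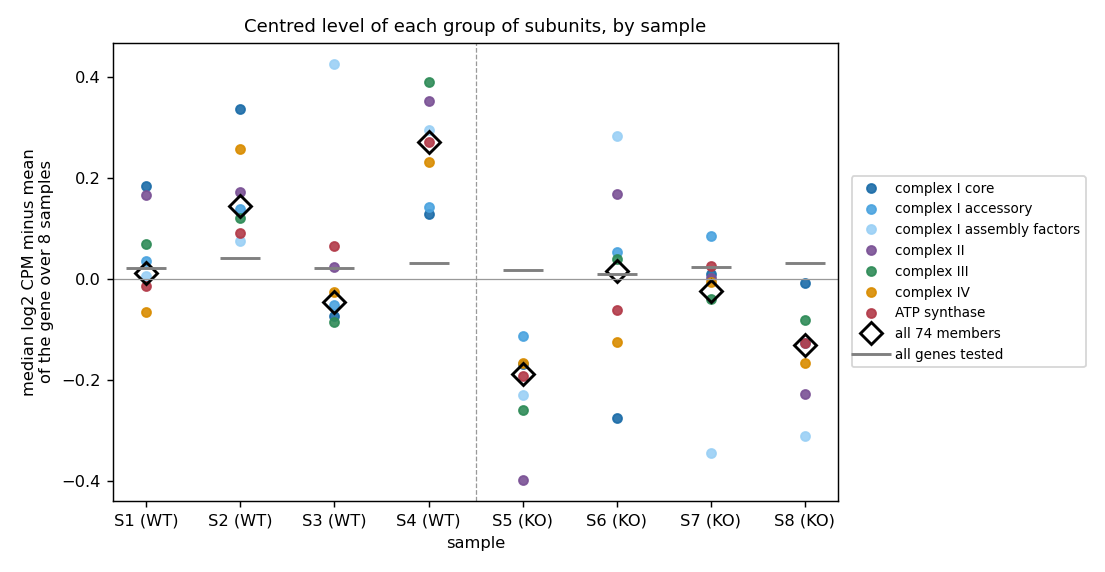
Median over genes of the log2 CPM centred on each gene's mean over 8 samples (y axis), for each group of subunits (colored points), all 74 members (diamonds) and all genes tested (grey dashes), in WT samples S1 to S4 and KO samples S5 to S8 (x axis). The diamonds are highest in S4 (0.27) and lowest in S5 (-0.19), while S1, S3, S6 and S7 lie between -0.045 and 0.016.

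Genes with a matching name under the minimum were treated apart. Of the 25, 14 were abundant enough to be tested, among them *Ndufa1*, *Ndufs5*, *Ndufb2*, *Ndufc1*, *Uqcr11* and *Atp5k*, all encoding small subunits. None was called, 10 had an estimate below 0, and their median was -0.14. Together with the members, 88 genes by name were tested, of which 69 had an estimate below 0 and 4 fell, with a median of -0.18. Just inside the minimum were *Ndufaf5* (50 counts in the lowest column), *Ndufaf1* (55) and *Ndufa12* (62), and just outside were *Atp5g2* (44), *Ndufa1* (41) and *Atp5k* (40).

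Other genes of the pathway were described from lists of their own. Of 41 further assembly factors and cytochrome c genes tested, 1 fell, 0 rose, 27 had an estimate below 0, and the median was -0.13. *Ecsit*, a complex I assembly factor that is also known from Toll-like receptor signaling, was the gene that fell, from 14.4, 12.5, 14.5 and 13.9 CPM in WT to 8.27, 8.57, 8.6 and 9.39 CPM in KO samples (log2 fold change -0.67, SE 0.21, adjusted p = 0.0477). Of 16 genes of the tricarboxylic acid cycle and pyruvate dehydrogenase, 1 fell, 0 rose, 14 had an estimate below 0, and the median was -0.25. Here *Idh3g*, a regulatory subunit of NAD-dependent isocitrate dehydrogenase, was at 37.8, 59.4, 49.2 and 52.6 CPM in WT and at 29.9, 31, 33.2 and 33.9 CPM in KO samples (-0.64, SE 0.15, adjusted p = 0.0101). Both genes were separated between the groups in all samples. The genes that fell were 2.44% of the first list and 6.25% of the second, compared with 4.98% of all genes tested. Every KO sample lay below every WT sample in 3 genes of each list (7.32% and 18.8%), compared with 8.28% of all genes.

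Among 15 regulators of mitochondrial genes, 14 were tested, 1 fell (7.14%, against 4.98% of all genes) and 0 rose, with a median of 0.017. *Myc*, a transcription factor known to drive growth and mitochondrial biogenesis in activated T cells, fell from 69.9, 72.1, 59.5 and 86.8 CPM in WT to 25.4, 42.5, 23.6 and 41.4 CPM in KO samples (log2 fold change -1.11, SE 0.19, adjusted p = 0.00084). It was the one gene of these lists past the thresholds of the study. The coactivator *Ppargc1a* held at most 0.898 CPM in any sample and was not tested, whereas its relatives *Ppargc1b* (-0.46, SE 0.29) and *Pprc1* (-0.14, SE 0.15) were measured without a call.

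The factors known to bind promoters of respiratory chain genes were expressed in both groups. *Nrf1* was at 50.8 to 61.5 CPM in WT and 62.7 to 76.3 CPM in KO samples, so the groups did not overlap, but the adjusted p was 0.083 (log2 fold change 0.33, SE 0.12). The subunits of the ETS-family factor GABP, *Gabpa* (-0.005, SE 0.11), *Gabpb1* (0.079, SE 0.15) and *Gabpb2* (-0.083, SE 0.095), had estimates within 1 SE of 0, as did *Yy1* (0.039, SE 0.094), while *Esrra* had -0.18 (SE 0.17). Of the genes that transcribe mitochondrial DNA, *Tfam* had -0.26 (SE 0.15), *Tfb1m* 0.28 (SE 0.61), *Tfb2m* 0.25 (SE 0.23) and the polymerase *Polrmt* 0.48 (SE 0.18, adjusted p = 0.0985). *Hif1a*, which shifts metabolism toward glycolysis, was at 716 to 779 CPM in WT and 745 to 982 CPM in KO samples (0.29, SE 0.098, adjusted p = 0.063).

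Estimates for the subunits encoded by mitochondrial DNA lay on the other side of 0. Of 13 such genes, 7 were tested, none was called, all 7 had an estimate above 0, and the median was 0.33, with 3 at an unadjusted p under 0.05. *mt-Co1*, the catalytic subunit of complex IV, was at 4320, 3940, 4680 and 4490 CPM in WT and at 6470, 5970, 4520 and 4070 CPM in KO samples. S5 and S6 were high and S7 and S8 within the WT range, so the difference of 0.27 (SE 0.12, adjusted p = 0.185) was not shared by all KO samples. The summed level of the mitochondrial genes was 6320, 5691, 6739 and 6772 CPM for the WT samples and 9365, 8573, 7080 and 5663 CPM for the KO samples, with S8 the lowest of all 8. The other 6 genes, among them *mt-Co2*, *mt-Co3* and *mt-Atp6*, held at most 0.116 CPM in any sample. Respiring cells use these subunits, so such values cannot be read as a lack of expression, and the sum covers in effect the 7 genes tested.

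Promoter windows from 250 bases before to 50 after the start (RefSeq, GRCm38.p6) were found for 61 of the 74 members, with 65 windows in all. They were searched on both strands for letters that match known sites of the factors above, and a match is only a description. CCGGAAG, the core of ETS sites, was in 24.6% of the members' windows, in 8.86% of all 32851 windows and in 18.0% of those of genes tested. CGCATGCG, the core bound by NRF1, was in 12.3% against 1.87% and 3.76%, and AAGATGGC, a core of YY1 sites, in 13.8% against 2.75% and 4.54%. CCAAT was in 43.1% against 37.4% and 37.9%. Members with and without a match numbered 16 and 45 for ETS, and 8 and 53 for NRF1. For YY1 they numbered 9 and 52, and for CCAAT 27 and 34. Their median log2 fold changes were -0.15 and -0.20 for ETS, and -0.072 and -0.20 for NRF1. Those for YY1 were -0.15 and -0.20, and those for CCAAT -0.22 and -0.13. Differences between these medians were not tested.

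The 120 bases before the start are shown for both called genes that have a window, *Atp5b* and *Ndufc2*, and for *Ndufaf4* and *Sdhd*, whose windows carry an NRF1 and an ETS match. Each is written 5′ to 3′ on the strand of its gene, with matches in capitals. Those of *Atp5b* (chr10:128083187-128083306, plus strand) and *Sdhd* (chr9:50603850-50603969, minus strand) hold CCAAT and the reverse complement of the ETS core, respectively. That of *Ndufaf4* (chr4:24897963-24898082, plus strand) holds the NRF1 core, and that of *Ndufc2* (chr7:97399883-97400002, plus strand) holds no match in the stretch shown but a run of CA repeats.
Atp5b: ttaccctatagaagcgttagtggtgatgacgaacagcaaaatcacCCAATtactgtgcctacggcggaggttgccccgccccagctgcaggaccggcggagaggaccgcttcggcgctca
Ndufc2: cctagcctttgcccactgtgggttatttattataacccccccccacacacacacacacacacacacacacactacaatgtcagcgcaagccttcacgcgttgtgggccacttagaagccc
Ndufaf4: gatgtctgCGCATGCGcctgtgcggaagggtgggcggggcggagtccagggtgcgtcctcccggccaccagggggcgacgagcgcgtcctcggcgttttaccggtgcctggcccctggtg
Sdhd: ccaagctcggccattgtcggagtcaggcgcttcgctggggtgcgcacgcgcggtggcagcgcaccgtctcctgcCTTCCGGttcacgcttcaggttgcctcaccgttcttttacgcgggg

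Some counts are uncertain because annotated exons of another gene share bases with a member. This held for 28 members, for 26 of them on the opposite strand, and in 18 the other genes held over 10% as many counts as the member. In 7 of them, *Cox6c* (with *Vps13b*), *Ndufs1* (with *Eef1b2*), *Ndufaf3* (with *Impdh2*), *Atp5j* (with *Gabpa*), *Ndufb11* (with *Rbm10*), *Ndufs6* (with *Mrpl36*) and *Ndufs3* (with *Kbtbd4*), the other gene held more counts than the member, and whether strand was used in counting is not given in the sources used here. The stretch shared in these 7 pairs ran from 9 of 8086 exon bases (*Ndufs1*) to 397 of 3130 (*Atp5j*). Of the 4 genes that fell, 1 is affected, *Atp5a1*, whose neighbor *Haus1* held 1.38% as many counts. Rows with the pseudogene suffix held 0.487% as many counts as the members, all but 125 of them in *Ndufb1-ps*.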

How the data were processed

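RNA-seq was performed on 4 samples of each genotype. Reads from rRNA-depleted, directional libraries were aligned by the authors to GRCm38 with STAR and counted per GENCODE gene with featureCounts, and the deposited table holds these raw counts. Columns were assigned to groups by the study's sample key. Genes passing filterByExpr were tested with edgeR 4.0.16 (R 4.3.3; TMM factors, quasi-likelihood test, Benjamini-Hochberg adjustment), without covariates. The standard errors (SE) were derived from that test, as the absolute log2 fold change divided by the square root of its F statistic. The CQN correction of GC content that the study combined with DESeq2 was not run. CPM used TMM factors, RPKM used union exon lengths of GENCODE M21 (GRCm38), where 55154 IDs were found, and log2 CPM used a prior count of 2. The tests were checked on simulated data. None of the 12 pairs of libraries within a group agreed within sampling noise. Alternatives were other scalings, filters, tests (DESeq2 1.42.0), offsets from smooth fits on GC content and exon length, and omission of each sample. Members and lists were chosen with earlier results of these data known. Named were called members, in each list the member with the highest RPKM and the highest and lowest fold changes, called pathway genes and tested regulators; *Atp5c1*, *Atp5d*, *Atp5e*, *Atp5g2*, *Atp5g3*, *Uqcrc1*, *Uqcrc2*, *Uqcrh*, *Ndufa12*, *Sdha* and *mt-Co1* were added after their values were seen. Values of 1 member and 1 marker gene are not reported here. The floor of 3 counts covers counting error only.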

Additional observations from a re-analysis of the deposited data

Results flagged for a closer look

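In 3 of 58 groups of 4 samples, 1 sample stood apart from the other 3 by more than the 95% critical value of Dixon's ratio of gap to range, and chance at 1 in 20 would give 2.9. For *Ndufc2*, S6 was at 4.46 on the log2 CPM scale with the other KO samples at 3.87 to 3.90 (ratio 0.953). For *Uqcrfs1*, S5 was at 5.00 with the others at 5.59 to 5.67 (ratio 0.872). For *Cox7a2*, S8 was at 3.36 with the others at 4.09 to 4.13 (ratio 0.953). The samples differed between these genes, and all 3 were KO samples, which came from 1 mouse each.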

How the results depend on the processing

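Members higher in KO numbered 0 in all 21 alternatives. Members lower in KO numbered 4 as reported, 0 at an adjusted p under 0.01, 2 with GC content offsets, 2 with offsets for GC content and exon length together (added after seeing the data), 1 to 4 when 1 sample was left out, and 3 to 5 otherwise. Past the study's thresholds there was 1 member (*Ndufc2*) without a filter on low counts and 0 elsewhere. The median log2 fold change of the members ranged from -0.225 to -0.135 and 50 to 64 members were below 0. Leaving out 1 sample gave medians of -0.53 to -0.23 for the assembly factors, of -0.37 to -0.18 for complex III, of -0.24 to -0.075 for complex IV, of -0.32 to -0.12 for complex II and of -0.129 to 0.007 for the accessory subunits of complex I, whose median was also above 0 with exon length offsets (0.020) and both offsets (0.010). *Atp5a1* passed in all 20 fits (adjusted p 0.00042 to 0.0386), *Atp5b* in 16, *Cyc1* and *Ndufc2* in 12. *Atp5c1* passed in 3, *Sdhd* in 2, *Cox4i1* and *Ndufv2* in 1. *Cyc1* and *Ndufc2* missed the threshold with GC content offsets (adjusted p = 0.0556 and 0.0515). The cause of these changes was not tested. The share of library counts taken by the members differed by -16.2% between KO and WT, and by -17.3% without the 10 genes with the most counts. No paired analysis was possible because the columns carry no replicate numbers.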
